A study of Danio rerio with 34 samples.

Results

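Gene expression was compared between hematopoietic stem and progenitor cells (HSPCs) and endothelial cells (ECs) sorted from sibling zebrafish embryos. By name these cell types stand at either end of the endothelial-to-hematopoietic transition (EHT). The comparison used 5 of the 34 samples of the series, and 5 of its 16 RNA-seq libraries. They were taken by the names of the columns of the count table, which call HSPCs HSC, and comprised 2 HSPC libraries (replicates 2 and 3) and 3 EC libraries (replicates 1, 2 and 3). A further 5 libraries of the same cell types from *dnmt1* mutants and 3 libraries of sibling hemogenic endothelial cells (HECs) were set beside them.

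During EHT, some endothelial cells in the floor of the dorsal aorta become hemogenic, lose their junctions with neighboring endothelium, round up and leave the vessel wall as blood stem and progenitor cells. ETS and SOX transcription factors and vascular growth factor receptors maintain endothelial identity, Notch signaling specifies arterial and hemogenic fate, and Runx1, Gata2b and Myb act in hemogenic endothelium and in the new progenitors. At this stage of zebrafish development the circulation also carries primitive red cells and primitive myeloid cells, which arise before and apart from EHT.

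All embryos carried 2 reporters, Tg(kdrl:mCherry) and Tg(runx1:en-GFP), and were taken at 36 hours post fertilization (hpf). By the study's methods each RNA library was made from 500 sorted cells of the trunk, which holds the aorta-gonad-mesonephros region named in the labels. Siblings are labelled only as such, so whether they were wild type or heterozygous is not given, and the mutants carried the s872 allele of *dnmt1*, which encodes the methyltransferase that copies DNA methylation at replication. HECs were positive for both reporters, and the gates for ECs and HSPCs are not given in the sources used here. The reporters were driven by the promoters of *kdrl* and *runx1*, so the levels of these genes follow in part from the sort.

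The sample labels conflict on genotype. For each RNA sample the title and the genotype label name one genotype and the description names the column of the other. The columns were followed here, so if the descriptions were right the libraries called sibling would be those of mutants. The *dnmt1* level does not settle this, since it was 235 and 95.6 CPM (counts scaled to a common effective library size) in mutant HSPCs against 182 and 79.2 CPM in sibling HSPCs, and 106, 117 and 77.6 CPM in mutant ECs against 108, 67.7 and 43.8 CPM in sibling ECs. The labels do not say whether replicates came from separate clutches, so p-values measure the spread between libraries. That spread was estimated over all 16 RNA-seq libraries and not over the 5 compared ones alone.

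Counts on genes numbered 3832048 and 11979546 in the HSPC libraries, and 3125048 to 6059149 in the EC libraries. Reads given to no gene made up 41.1% to 55.2% of these libraries. CPM values are not per gene length, so levels were compared between libraries and not between genes. The 10 genes with the most counts took 27.3% and 15.7% of the HSPC counts, and 17.9% to 23.5% of the EC counts. In both cell types the mitochondrial ribosomal RNA *mt-rnr2* had the most counts.

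The 2 HSPC libraries were not alike, and one EC library stood apart. Summed over 14 globin genes, HSPC replicate 2 held 192108 CPM and replicate 3 held 37836 CPM, against 2280, 9.62 and 0 CPM in EC replicates 1, 2 and 3. Summed over 18 skeletal muscle markers, the same HSPC libraries held 14.4 and 37838 CPM, against 65.1, 38.8 and 82.3 CPM in ECs. HSPC replicate 2 was thus rich in globin RNA and replicate 3 in muscle RNA, and EC replicate 1 held more globin RNA than the other EC libraries. EC replicate 1 also had the highest EC sum of the heme and pan-leukocyte lists given below, but not of the myeloid list, at 5237 CPM against 2360.2 and 5239.8 CPM in EC replicates 2 and 3. All 18 muscle markers had a positive fitted log2 fold change, with a median of 7.78 (7.64 with genes that had no EC count at their bound), and none passed the test by edgeR, with 15 at an unadjusted p under 0.05 and 3 called by DESeq2. Of all 21161 tested genes, 4420 had an unadjusted p under 0.05 and DESeq2 on all libraries called 2476. HSPC replicate 3 alone was high in muscle markers. In mutant HSPCs the muscle sum was again low in replicate 2, at 671 CPM, and high in replicate 3, at 32363 CPM, so same-numbered libraries of both genotypes shared this difference. Pigment cell markers summed to 4134 and 28.2 CPM in HSPC replicates 2 and 3, against 9.62, 12.8 and 309 CPM in ECs. The part of these other RNAs in the results below was not tested beyond leaving out each library in turn.

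**Figure D1:**
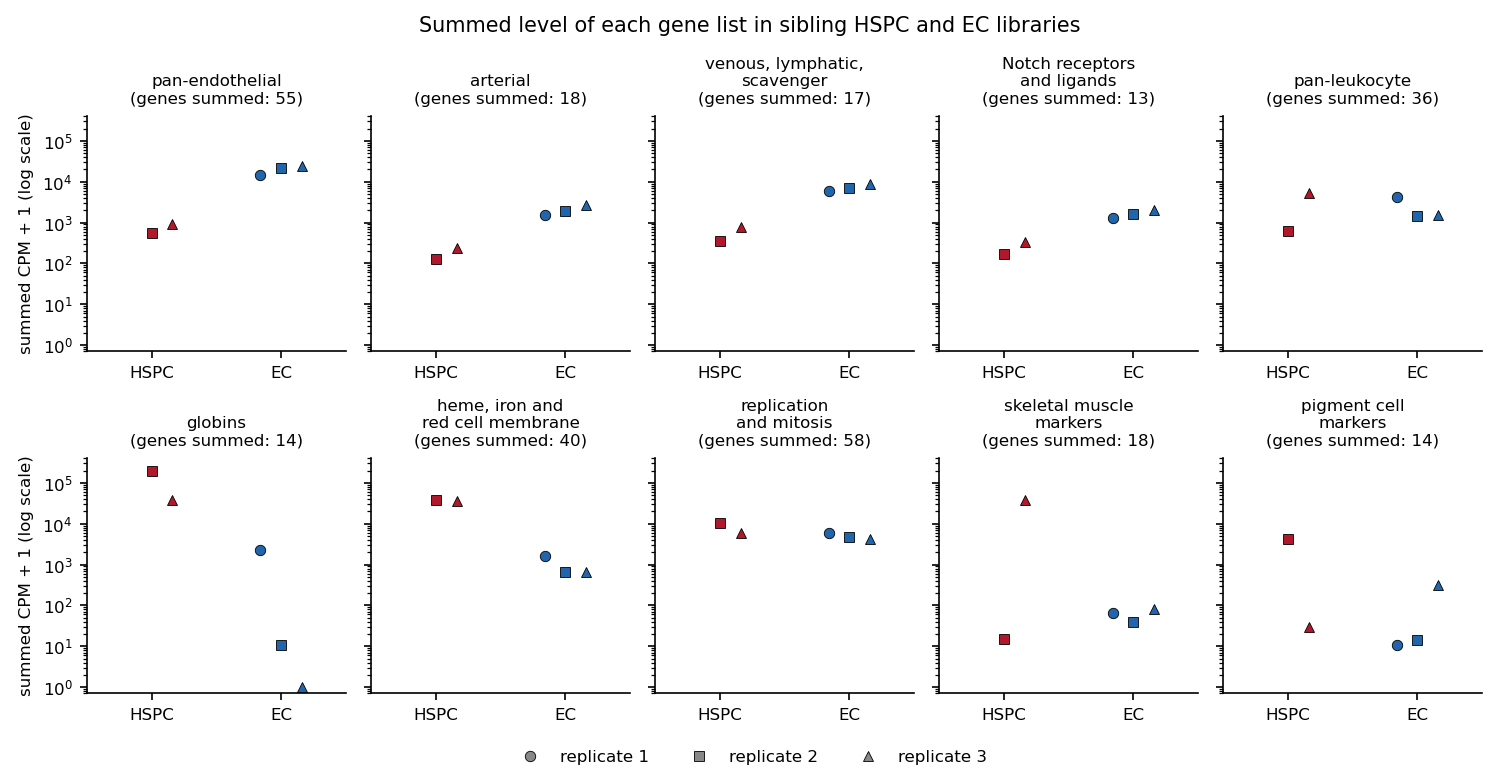
Summed level of each gene list in the 2 sibling HSPC and 3 sibling EC libraries, as CPM plus 1 on a log axis. Each symbol is 1 library and its shape gives the replicate number. The endothelial, arterial, venous and Notch sums are lower in both HSPC libraries than in every EC library, the globin and heme sums are higher, and the skeletal muscle sum is high in HSPC replicate 3 alone.

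The labels were checked against marker genes. EC libraries held the endothelial markers *kdrl*, *cdh5*, *tie1*, *pecam1*, *egfl7* and *fli1a* at levels of 62.2 CPM or more in every replicate. Of 6 blood progenitor markers, *runx1*, *myb*, *gata2b*, *ptprc*, *gfi1aa* and *spi1b*, none was called higher in HSPCs and *gata2b* was called lower. Of 5 red cell markers, *gata1a* and *hbbe2* were called higher, and *slc4a1a*, *hbae3* and *alas2* were above ECs in both HSPC libraries without passing the test. The calls of *gata1a* and *hbbe2* were each lost in 4 of the 5 fits that left out 1 library, and that of *gata2b* in 3. By these markers, and by the red cell genes below, the libraries labelled HSPC were marked by red cell genes. A higher level of progenitor genes was not shown, and genes not called are not shown to be equal. The name HSPC is kept here only as the label. In bulk samples fewer cells of a type and less RNA per cell cannot be told apart.

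Of 47048 genes in the table, 21161 passed the filter on low counts and were tested with edgeR's quasi-likelihood fit over all 16 libraries. Calls needed a Benjamini-Hochberg adjusted p under 0.05 together with a log2 fold change (HSPC over EC) of 1 or more in either direction. The fit called 1139 genes, or 5.38% of those tested. In HSPCs 440 genes were higher (2.08%), with a median log2 fold change of 5.24, and 699 were lower (3.3%), with a median of -3.51. Over all tested genes the median was 0.18 and 44.8% had a negative value. In 94 of the higher genes every EC library had 0 counts, and in 61 of the lower genes both HSPC libraries did. Of the genes chosen by this test, both HSPC libraries were below every EC library in all 699 lower genes, against 14.94% of all tested genes, and above every EC library in 429 of the 440 higher genes, against 21.8% of all tested genes. The number of calls rested on few libraries. It was 439 without HSPC replicate 2, 663 without HSPC replicate 3, 674 without EC replicate 2 and 619 without EC replicate 3, and 304 genes (106 higher and 198 lower) were called in all 5 fits that left out 1 library. Fitting only the 5 compared libraries called 366 genes.

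**Figure D2:**
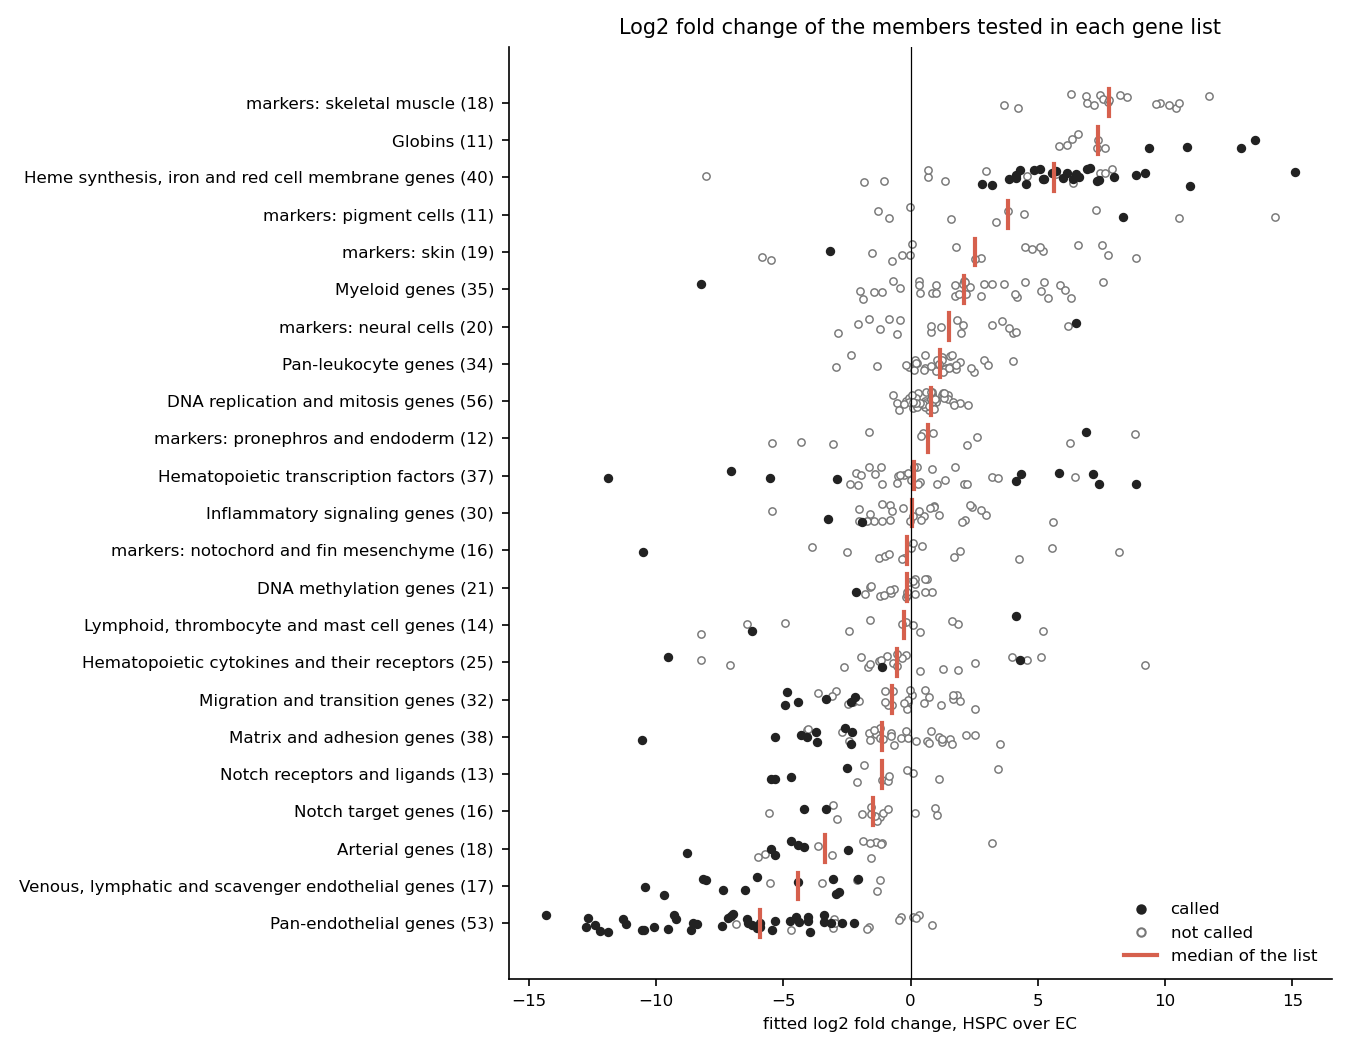
Fitted log2 fold change, HSPC over EC, of every tested member of 23 gene lists, with the number tested in parentheses. Filled points are called genes, open points are not, and the bar is the median of the list. Called genes lie to the left in the endothelial lists and to the right in the globin and heme lists, and the skeletal muscle markers lie far to the right with no gene called. Genes with no count in one cell type are placed at their fitted value, which is not a bound.

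Endothelial genes were lower in HSPCs as a group. Of 53 tested pan-endothelial genes, 40 were called lower and none higher, against 3.3% of all tested genes called lower, and the median log2 fold change was -5.93. Their summed level was 542 and 914 CPM in HSPCs, and 14253, 21699 and 24914 CPM in ECs. The number called lower was 32 to 39 when 1 EC library was left out, and 27 of 53 when only the 5 compared libraries were fitted. The reporter gene *kdrl* is among the 40 called, and the part of the sort in the other calls was not tested.

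Of the genes for junction and surface proteins of endothelium, 6 are given here. *cdh5*, which encodes VE-cadherin, the adhesion protein of endothelial junctions, had 0 counts in both HSPC libraries, against 326, 409 and 465 CPM in ECs. It was at least 2075-fold lower in HSPCs, with the bound set at 3 counts over the group (adjusted p = 0.000474). The receptor kinase *tie1* was likewise at 0 in both HSPC libraries and at 62.2, 150 and 105 CPM in ECs, at least 516-fold lower (adjusted p = 8.91e-05). Neither gene left a single read in HSPCs. *pecam1*, an adhesion protein of endothelial contacts, was at 0.865 and 0.17 CPM in HSPCs, against 283, 424 and 674 CPM in ECs (log2 fold change -10.07 ± 0.81 SE, adjusted p = 2.05e-05). The tight junction gene *cldn5b* and the lectin gene *clec14a* each had 1 count in HSPCs, which gives EC-to-HSPC ratios of 9140 (95% counting interval 1640 to 361043) and 7860 (1410 to 310504). *sele*, encoding E-selectin, which captures white cells, was at 0 and 0.424 CPM in HSPCs and at 730, 2005 and 1638 CPM in ECs (log2 fold change -12.22 ± 1.08 SE, adjusted p = 3.32e-05). Like all 699 genes called lower, and 14.94% of all tested genes, these 6 genes were below every EC library in both HSPC libraries. They kept their calls without any 1 library.

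Among transcription factors of the pan-endothelial list, *fli1a*, *fli1b*, *erg*, *etv2*, *sox18*, *klf2a*, *klf2b* and *klf6a* were called lower. *sox7*, *mef2ca* (log2 fold change 0.32, adjusted p = 0.927) and *mef2cb* (log2 fold change -3.02, adjusted p = 0.238) were not called. Log2 fold changes were -4.40 for *fli1b* (adjusted p = 0.0198), -6.98 for *sox18* (0.0355), -7.06 for *klf2a* (0.00276) and -2.22 for *klf6a* (0.0087). The calls of *fli1b* and *sox18* were lost without EC replicate 3, among others, and that of *klf6a* without either HSPC library. *fli1a*, an ETS factor, was at 14.4 and 17.6 CPM in HSPCs, against 833, 1436 and 1340 CPM in ECs (log2 fold change -6.23 ± 0.52 SE, adjusted p = 2.73e-05). The related *erg* had 1 count in HSPCs and 299, 273 and 371 CPM in ECs, a ratio of 4970 (95% counting interval 892 to 196358, adjusted p = 0.000795). *etv2*, the ETS factor that starts the endothelial program, was at 0.577 and 1.1 CPM in HSPCs and at 719, 546 and 385 CPM in ECs (log2 fold change -9.23 ± 1.15 SE, adjusted p = 0.000418). Of these 3 ETS genes *fli1a* had the smallest fitted difference between the cell types. *sox7*, a SOX factor of vessels, was at 0 and 15.7 CPM in HSPCs and at 1115, 833 and 923 CPM in ECs and missed the threshold (log2 fold change -6.88 ± 1.89 SE, adjusted p = 0.0526). The flow-induced *klf2b* differed by less, with 102 and 170 CPM in HSPCs, against 2055, 2045 and 2223 CPM in ECs (log2 fold change -3.95 ± 0.49 SE, adjusted p = 0.000441).

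Among vascular growth factor receptors, *kdrl* was at 0 and 16.9 CPM in HSPCs and at 282, 704 and 615 CPM in ECs (log2 fold change -5.93 ± 1.28 SE, adjusted p = 0.0157). Since *kdrl* drives a sort reporter, this is a check of the sort and not a finding. *kdr*, another receptor of this group, had 3 counts in HSPCs and 94.1, 209 and 250 CPM in ECs. Its EC-to-HSPC ratio was 971 (95% counting interval 332 to 4710, adjusted p = 0.000588). The row of the microRNA gene *mir126a*, which lies within *egfl7* in vertebrates, had 0 counts in HSPCs and 139, 304 and 125 CPM in ECs, at least 863-fold lower (adjusted p = 0.000374). Its host *egfl7*, a secreted endothelial protein, was at 4.33 and 2.8 CPM in HSPCs and at 419, 1506 and 2035 CPM in ECs (log2 fold change -8.55 ± 1.14 SE, adjusted p = 0.000588). Whether the reads on *mir126a* came from the microRNA precursor or from its host cannot be told apart. Other genes with 0 counts in HSPCs and the largest fitted changes were *scarf1* (at least 1067-fold lower), a scavenger receptor of endothelium, *tm4sf18* (at least 1135-fold), *ehd2b* (at least 563-fold), *ccm2l* (at least 446-fold) and *cd81b* (at least 425-fold). *krt94*, a keratin gene at 231, 155 and 232 CPM in ECs and 0 in both HSPC libraries, was at least 1090.0-fold lower, and its call was lost without HSPC replicate 2 (adjusted p = 0.104) or without HSPC replicate 3 (adjusted p = 0.143).

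**Figure D3:**
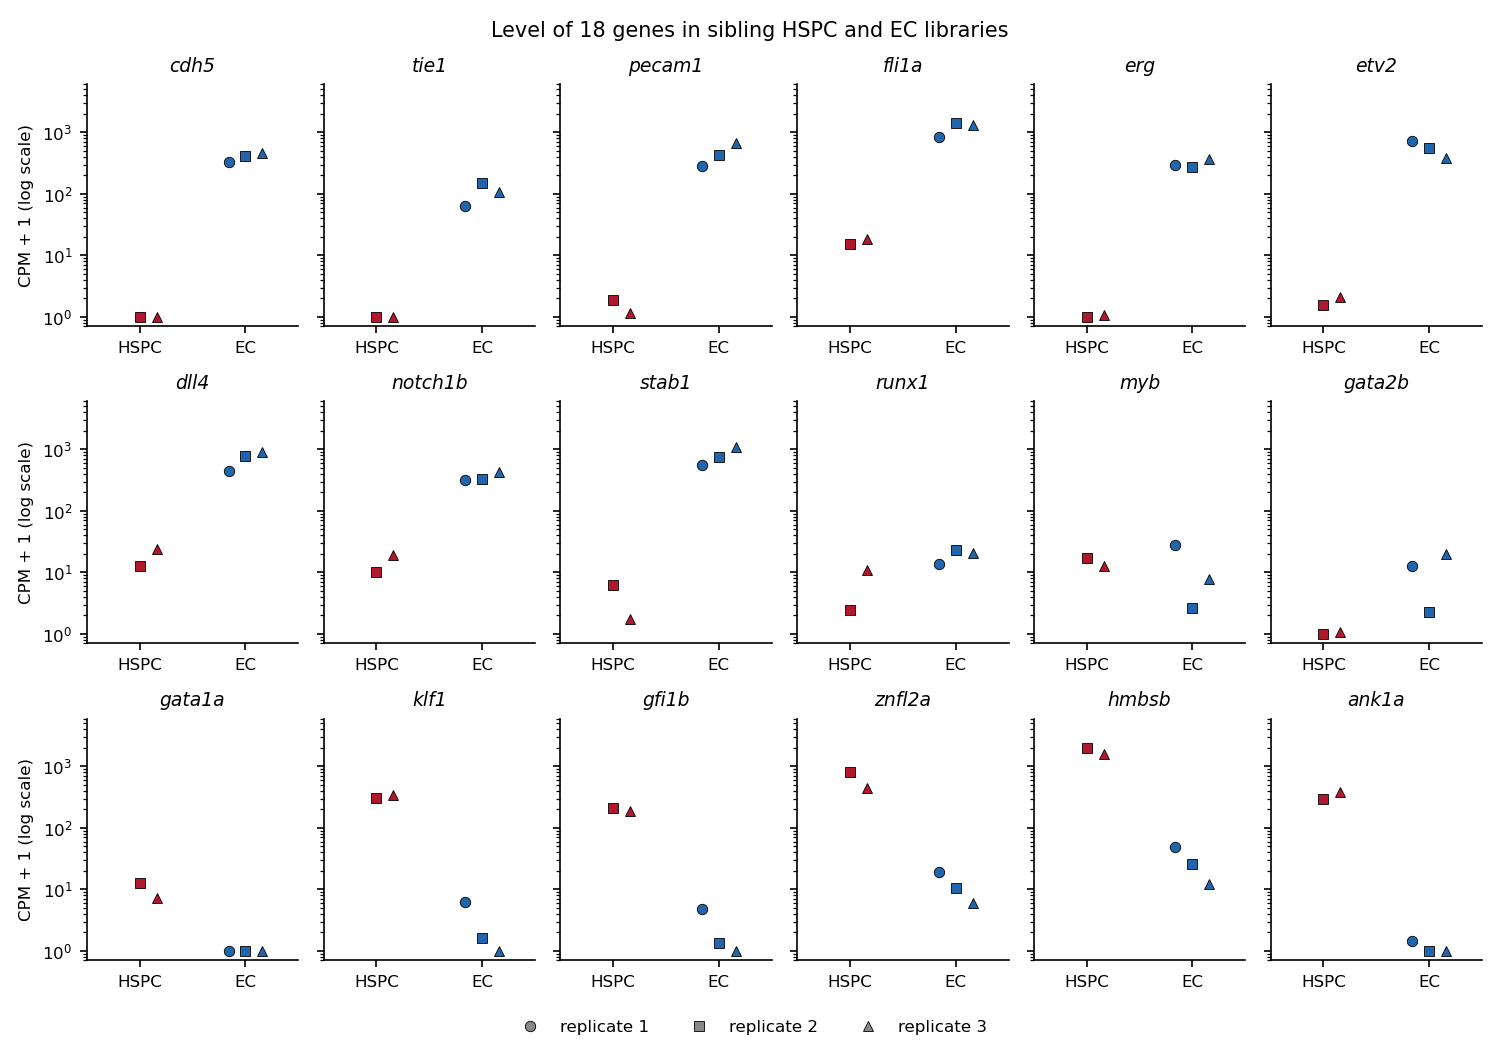
Level of 18 genes in the 2 sibling HSPC and 3 sibling EC libraries, as CPM plus 1 on a log axis. Each symbol is 1 library and its shape gives the replicate number. Endothelial, arterial and scavenger genes in the first 9 panels are low in both HSPC libraries. *runx1*, *myb* and *gata2b* are not called higher in HSPCs. The red cell genes of the bottom row are higher in HSPCs than in every EC library.

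Arterial genes were lower too, with fewer calls. Of 18 tested arterial genes, 7 were called lower and none higher, against 3.3% of all tested genes called lower, with a median log2 fold change of -3.35, or -2.76 with the gene that had no HSPC count set at its bound. The arterial sum was 125 and 237 CPM in HSPCs and 1511, 1972 and 2667 CPM in ECs. The number called was 2 without HSPC replicate 2 and 4 without EC replicate 2, EC replicate 3 or HSPC replicate 3, and 3 of the 15 tested when only the 5 compared libraries were fitted.

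The Notch ligand *dll4*, which marks arteries, was at 11.8 and 23.3 CPM in HSPCs, against 441, 771 and 909 CPM in ECs (log2 fold change -5.32 ± 0.60 SE, adjusted p = 0.000211). The ligand *dlc* was at 2.88 and 3.22 CPM in HSPCs and at 21, 126 and 266 CPM in ECs (log2 fold change -5.48 ± 1.15 SE, adjusted p = 0.0126). *dll4* kept its call without any 1 library, and *dlc* lost it without HSPC replicate 2 (adjusted p = 0.112) or HSPC replicate 3 (adjusted p = 0.0996). *hey2*, a repressor induced by Notch in arteries, was at 8.94 and 1.44 CPM in HSPCs and at 52.1, 76.3 and 148 CPM in ECs (log2 fold change -4.20 ± 1.09 SE, adjusted p = 0.0373), and the call was lost without any 1 of 4 libraries, with adjusted p of 0.067 without EC replicate 2, 0.107 without EC replicate 3, 0.0614 without HSPC replicate 2 and 0.219 without HSPC replicate 3. The ephrin ligand *efnb2a* was at 0.865 and 19.5 CPM in HSPCs and at 42.9, 16.7 and 53.9 CPM in ECs, so the groups overlapped and it was not called (log2 fold change -1.87 ± 1.08 SE, adjusted p = 0.346). Its paralog *efnb2b* was called lower, at 4.04 and 21.2 CPM in HSPCs and 66.9, 80.8 and 62.5 CPM in ECs (log2 fold change -2.45 ± 0.67 SE, adjusted p = 0.0487), and its call was lost without HSPC replicate 2 (adjusted p = 0.255) or any 1 EC library (0.0696 to 0.112). The water channel *aqp8a.1* had 1 count in HSPCs, a ratio of 534 (95% counting interval 95.3 to 21115, adjusted p = 0.0163), and lost its call without HSPC replicate 2 (adjusted p = 0.134) or HSPC replicate 3 (adjusted p = 0.147).

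The Notch receptors were not all called. *notch1b*, which zebrafish HSPC specification requires, was at 9.23 and 18.1 CPM in HSPCs, against 317, 323 and 431 CPM in ECs (log2 fold change -4.70 ± 0.67 SE, adjusted p = 0.000889). *notch1a* was at 33.5 and 35 CPM in HSPCs, against 173, 179 and 234 CPM in ECs (log2 fold change -2.51 ± 0.41 SE, adjusted p = 0.00234). Both receptors were lower in HSPCs without overlap, as were all 699 genes called lower, and kept their calls without any 1 library. *notch2* was at 27.4 and 91.5 CPM in HSPCs and at 61.1, 43.3 and 61.9 CPM in ECs (log2 fold change 0.10 ± 0.69 SE, adjusted p = 0.962). *notch3* was at 9.23 and 9.76 CPM in HSPCs and at 36, 24.1 and 2.69 CPM in ECs (log2 fold change -1.13 ± 1.45 SE, adjusted p = 0.724). For *notch2* and *notch3* the libraries overlapped. Over the 13 Notch receptors and ligands, 4 were called lower, namely *dll4*, *dlc*, *notch1a* and *notch1b*, and none higher, with a median of -1.13. The share of all tested genes called lower, for this list and for the targets named next, was 3.3%. Of 16 Notch target genes tested, with a median of -1.48, only *hey2* and *nrarpb* were called, and none was called without HSPC replicate 2 or without HSPC replicate 3. Of the genes called in these Notch lists, *dll4*, *dlc*, *notch1b* and *hey2* are in the arterial list too, and *dll4* also in the pan-endothelial list. *nrarpb*, a feedback regulator of Notch, was at 7.5 and 8.66 CPM in HSPCs and at 36.5, 68.3 and 138 CPM in ECs (log2 fold change -3.32 ± 0.69 SE, adjusted p = 0.0116).

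Genes of veins, lymphatic vessels and scavenger endothelium made up the list with the next lowest median, -4.43 over 17 tested genes. Of these genes 12 were called lower and none higher, against 3.3% of all tested genes called lower. Their sum was 361 and 782 CPM in HSPCs, against 5908, 7056 and 8788 CPM in ECs. The number called lower was 11 to 13 when 1 EC library was left out, and 8 of 17 when only the 5 compared libraries were fitted. The receptor *flt4*, which binds VEGF-C, was at 1.15 and 2.04 CPM in HSPCs and at 313, 545 and 465 CPM in ECs (log2 fold change -8.04 ± 1.3 SE, adjusted p = 0.00225, and 0.050015 without HSPC replicate 2, just past the threshold). The scavenger receptor *stab1* was at 5.19 and 0.764 CPM in HSPCs and at 562, 739 and 1073 CPM in ECs (log2 fold change -8.15 ± 0.90 SE, adjusted p = 0.000195). *stab2*, a receptor that clears hyaluronan, was at 0 and 0.934 CPM in HSPCs and at 807, 785 and 958 CPM in ECs (log2 fold change -10.45 ± 1.07 SE, adjusted p = 9.81e-05). Both were nearly absent from HSPCs, and since stabilin genes have close copies in the table, reads may be split between them. The mannose receptor *mrc1a* was at 0 and 11.6 CPM in HSPCs, against 884, 1149 and 964 CPM in ECs (log2 fold change -7.36 ± 1.5 SE, adjusted p = 0.0118). *lyve1b*, a receptor of lymphatic vessels, had 0 counts in HSPCs and 7.6, 14.4 and 26.5 CPM in ECs, at least 90.2-fold lower (adjusted p = 0.00328). *nr2f2*, a nuclear receptor of venous fate, differed by less, with 35.2 and 21.8 CPM in HSPCs and 172, 275 and 265 CPM in ECs (log2 fold change -3.06 ± 0.47 SE, adjusted p = 0.00154). EC libraries thus held RNA of arterial and of venous genes.

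Transcription factors of blood differed in both directions. Of 37 tested, 6 were called higher and 4 lower, with a median of 0.14, against 2.08% and 3.3% of all tested genes. The 6 higher genes, *gata1a*, *klf1*, *gfi1b*, *znfl2a*, *klf17* and *nfe2*, include the main regulators of red cell genes, and the 4 lower genes, *erg*, *gata2b*, *hhex* and *gata2a*, are also read in endothelium. The numbers called without 1 library were 2 to 7 higher and 2 to 5 lower, the fewest higher without EC replicate 2. Fitting only the 5 compared libraries called 3 higher and 3 lower.

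*gata1a*, the GATA factor that drives red cell differentiation, was at 11.8 and 6.36 CPM in HSPCs and had 0 counts in all 3 EC libraries, at least 35.3-fold higher (adjusted p = 0.022). The call was lost without EC replicate 2 (adjusted p = 0.0589), EC replicate 3 (0.0658), HSPC replicate 2 (0.089) or HSPC replicate 3 (0.0542). *klf1*, an activator of globin genes in mammals, was at 307 and 343 CPM in HSPCs and at 5.14, 0.641 and 0 CPM in ECs (log2 fold change 7.39 ± 1.62 SE, adjusted p = 0.018, lost without EC replicate 2 at 0.0745, HSPC replicate 2 at 0.0614 or HSPC replicate 3 at 0.0541). *gfi1b*, a repressor of red cell and platelet precursors, was at 211 and 190 CPM in HSPCs and at 3.8, 0.321 and 0 CPM in ECs (log2 fold change 7.17 ± 1.49 SE, adjusted p = 0.0129, lost without EC replicate 2 at 0.0584). For these 3 genes both HSPC libraries were above every EC library, as for 429 of the 440 genes called higher. The zinc finger gene *znfl2a* was at 798 and 443 CPM in HSPCs, against 18.1, 9.62 and 5.05 CPM in ECs (log2 fold change 5.83 ± 0.82 SE, adjusted p = 0.000841). The Krüppel-like factor *klf17* was at 227 and 205 CPM in HSPCs, against 14.1, 8.34 and 9.32 CPM in ECs (log2 fold change 4.35 ± 0.82 SE, adjusted p = 0.00643). These last 2 genes kept their calls without any 1 library. *nfe2*, at 103 and 52.3 CPM in HSPCs and 3.35, 4.17 and 5.69 CPM in ECs (adjusted p = 0.0354), lost its call without any 1 of the 5 libraries, with adjusted p from 0.055 without HSPC replicate 3 to 0.139 without HSPC replicate 2.

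Genes of hemogenic endothelium and early progenitors did not follow. *myb*, a factor of definitive progenitors, was at 16.4 and 11.5 CPM in HSPCs and at 26.6, 1.6 and 6.79 CPM in ECs, with overlap (log2 fold change 0.25 ± 1.22 SE, adjusted p = 0.945). Its level in HECs was 150, 56 and 124 CPM, above every HSPC and EC library. *runx1* was at 1.44 and 9.84 CPM in HSPCs and at 12.5, 21.8 and 19.7 CPM in ECs (log2 fold change -1.63 ± 0.88 SE, adjusted p = 0.31), and as a reporter gene it is a check of the sort. *gata2b*, which acts in zebrafish hemogenic endothelium, had 1 count in HSPCs and 11.6, 1.28 and 19.3 CPM in ECs, a ratio of 195.0 (95% counting interval 34.6 to 7745, adjusted p = 0.0298). In HECs it was at 75, 35.6 and 48 CPM. The *gata2b* call was lost without EC replicate 3 (adjusted p = 0.0785), HSPC replicate 2 (0.158) or HSPC replicate 3 (0.185). Its paralog *gata2a* was at 20.8 and 28.5 CPM in HSPCs and at 214, 131 and 202 CPM in ECs (log2 fold change -2.89 ± 0.67 SE, adjusted p = 0.0215, lost without EC replicate 3 at 0.065, HSPC replicate 2 at 0.175 or HSPC replicate 3 at 0.101). The homeobox gene *hhex*, which acts early in blood and vessels, was at 2.02 and 5.86 CPM in HSPCs and at 148, 158 and 252 CPM in ECs (log2 fold change -5.51 ± 0.62 SE, adjusted p = 0.00021) and kept its call throughout. *tal1* and *lmo2*, further factors shared by blood and endothelium, were not called. *tal1* was at 257 and 164 CPM in HSPCs and 93.7, 55.5 and 101 CPM in ECs (adjusted p = 0.403). *lmo2* was at 324 and 311 CPM in HSPCs and 389, 271 and 471 CPM in ECs (adjusted p = 0.804).

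Genes of red cell maturation gave the most calls higher in HSPCs of any list. Of 40 tested genes of heme synthesis, iron handling and the red cell membrane, 27 were called higher and none lower, against 2.08% of all tested genes called higher. Their median log2 fold change was 5.64, or 5.17 with genes that had no count in one cell type at their bound. The sum was 38529 and 36433 CPM in HSPCs, against 1626, 665 and 668 CPM in ECs. Unlike the globins and the muscle markers, this sum was nearly equal in both HSPC libraries. The number called higher was 21 to 30 when 1 library was left out and 15 when only the 5 compared libraries were fitted. *gata1a* and *klf1* belong to this list as well as to that of the transcription factors.

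Heme synthesis starts in the mitochondrion, runs through the cytosol and ends in the mitochondrion, and several of its enzymes were called. The heme and iron genes named next were chosen after their values were seen, as members that kept their calls without any 1 library. *hmbsb*, hydroxymethylbilane synthase, was at 2009 and 1563 CPM in HSPCs and at 48.1, 25 and 11.4 CPM in ECs (log2 fold change 5.99 ± 0.66 SE, adjusted p = 0.000195). *urod*, uroporphyrinogen decarboxylase, was at 1966 and 1416 CPM in HSPCs and at 155, 33 and 30.2 CPM in ECs (log2 fold change 4.54 ± 0.68 SE, adjusted p = 0.00118). *fech*, which inserts iron into the ring as the last step, was at 401 and 173 CPM in HSPCs and at 8.05, 0 and 2.05 CPM in ECs (log2 fold change 6.38 ± 1.08 SE, adjusted p = 0.00315). Both HSPC libraries were above every EC library for all 3 enzymes, as for 429 of the 440 genes called higher. The mitochondrial iron importer *slc25a37* was at 170 and 425 CPM in HSPCs, against 7.6, 5.77 and 10.1 CPM in ECs (log2 fold change 5.24 ± 0.63 SE, adjusted p = 0.000356). *alad*, *hmbsa*, *uros*, *cpox* and *ppox*, further enzymes of the chain, were called higher too, with adjusted p from 0.000474 to 0.00322. *alas2*, the first enzyme of the chain in red cells, was at 3.17 and 3.56 CPM in HSPCs with 0 counts in ECs, and was not called (adjusted p = 0.101).

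Among proteins of the red cell membrane and its skeleton, *ank1a*, which anchors the skeleton to the membrane, was at 299 and 377 CPM in HSPCs and had 2 counts in ECs, a ratio of 2498 (95% counting interval 691 to 20632, adjusted p = 0.000123). *tmod4*, which caps actin filaments, was at 426 and 933 CPM in HSPCs with 0 counts in ECs, at least 3793-fold higher (adjusted p = 0.00188). Both kept their calls without any 1 library. *slc4a1a*, the anion exchanger known as band 3, had 8974 and 9253 CPM in HSPCs and 112, 0.641 and 0 CPM in ECs, and was not called (log2 fold change 7.92 ± 2.34 SE, adjusted p = 0.0699). The carbonic anhydrase *cahz* had 7542 and 7319 CPM in HSPCs and 111, 0.321 and 0 CPM in ECs (log2 fold change 7.64 ± 2.3 SE, adjusted p = 0.075), and the transferrin receptor *tfr1a* had 478 and 532 CPM in HSPCs and 28.4, 0 and 0 CPM in ECs (log2 fold change 5.73 ± 1.76 SE, adjusted p = 0.0809). In these 3 genes the HSPC libraries were nearly equal and the spread lay among ECs, where replicate 1 was high. *nt5c2l1* had the same pattern, with 2698 and 2439 CPM in HSPCs and 28.4, 0 and 2.05 CPM in ECs, and was called (log2 fold change 7.98 ± 1.6 SE, adjusted p = 0.0116). The iron reductase *steap3* was at 12.1 and 10.7 CPM in HSPCs with 0 counts in ECs, at least 51.1-fold higher (adjusted p = 0.0165), and lost its call without EC replicate 3 (adjusted p = 0.053) or HSPC replicate 2 (adjusted p = 0.0623). *jak2a*, the kinase downstream of the erythropoietin receptor, was at 318 and 352 CPM in HSPCs and at 27.1, 21.2 and 3.63 CPM in ECs (log2 fold change 4.28 ± 0.67 SE, adjusted p = 0.00165). The receptor *epor* itself was at 69.5 and 158 CPM in HSPCs and 0, 0.321 and 13.6 CPM in ECs and was not called (adjusted p = 0.1).

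Globin genes had higher levels in HSPCs with a large spread. All 11 tested globins had a positive fitted log2 fold change, with a median of 7.36, and 4 were called, against 2.08% of all tested genes called higher. The number called was 9 with the replicate number as a term over all libraries, and 1 of the 10 tested when only the 5 compared libraries were fitted. *hbae3*, an embryonic alpha globin, was at 67778 and 11966 CPM in HSPCs and at 739, 2.89 and 0 CPM in ECs (log2 fold change 7.33 ± 2.78 SE, adjusted p = 0.153). The embryonic beta globin *hbbe1.1* was at 58152 and 8779 CPM in HSPCs and at 505, 2.24 and 0 CPM in ECs (log2 fold change 7.63 ± 2.66 SE, adjusted p = 0.122). Both HSPC libraries were above every EC library, yet they differed severalfold from each other and EC replicate 1 stood far above the other ECs. *hbz* was at 288 and 31.9 CPM in HSPCs with 0 counts in ECs, at least 418-fold higher (adjusted p = 0.00743), and was the only globin to keep its call without any 1 library. *hbbe3* was at 9712 and 532 CPM in HSPCs and at 0.224, 1.28 and 0 CPM in ECs (log2 fold change 13.53 ± 2.61 SE, adjusted p = 0.00912, lost without HSPC replicate 2 at 0.0548). *hbbe2* and *hbae5* had 2 counts each in ECs, with HSPC-to-EC ratios of 1029 (95% counting interval 285 to 8504, adjusted p = 0.0213) and 399 (110.1 to 3299, adjusted p = 0.0435). *hbbe2* lost its call without any EC library or without HSPC replicate 2, and *hbae5* kept its call only without HSPC replicate 3, with adjusted p up to 0.179 and 0.278. The number of globins called was 1 without HSPC replicate 2, 2 without EC replicate 2 or EC replicate 3, and 8 without EC replicate 1. Globin genes are near-identical copies, so reads may be assigned to the wrong copy or to none, and differences between single globins are uncertain.

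White cell genes are set beside the shares over all 21161 tested genes. Of those, edgeR called 5.38%, 4420 had an unadjusted p under 0.05 and DESeq2 on all libraries called 2476. None of 34 tested pan-leukocyte genes was called by edgeR (4 at an unadjusted p under 0.05, and 4 called by DESeq2). In a list this short, 0 calls do not set it apart from all tested genes. Of the 34 pan-leukocyte genes, 29 had a positive fitted log2 fold change, and the median was 1.17. Their sum was 622 and 5445 CPM in HSPCs and 4182, 1429 and 1500 CPM in ECs, so the groups overlapped, and HEC libraries held 13594, 3229 and 19814 CPM. *lcp1*, an actin-bundling protein of white cells, was at 81.3 and 1388 CPM in HSPCs and at 652, 31.7 and 75.2 CPM in ECs (log2 fold change 1.54 ± 1.28 SE, adjusted p = 0.543). *ptprc*, which encodes CD45, was at 2.31 and 71.9 CPM in HSPCs and at 41.1, 0 and 1.9 CPM in ECs (adjusted p = 0.715). Replicate 3 was the higher HSPC library and replicate 1 the highest EC library in both genes. Of 35 tested myeloid genes, with a median of 2.09, 1 was called, the macrophage receptor *timd4*, with 0 counts in HSPCs and 4.7, 8.02 and 5.05 CPM in ECs, at least 28.5-fold lower (adjusted p = 0.0209), lost without HSPC replicate 2 (adjusted p = 0.117) or HSPC replicate 3 (adjusted p = 0.18). The neutrophil peroxidase *mpx* was at 203 and 568 CPM in HSPCs and at 911, 3.53 and 0 CPM in ECs (adjusted p = 0.967). Among 14 tested lymphoid, thrombocyte and mast cell genes, with a median of -0.26, only *nfe2* (higher) and *fli1a* (lower) were called, both shared with lists above.

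Of 25 tested cytokine and receptor genes, with a median of -0.55, *jak2a* was called higher and *thpo* and *stat3* lower. Of all tested genes 2.08% were called higher and 3.3% lower. *thpo*, the ligand of the thrombopoietin receptor, had 0 counts in HSPCs and 11, 14.8 and 17.7 CPM in ECs, at least 75.6-fold lower (adjusted p = 0.0288). *stat3* was at 70.7 and 68.7 CPM in HSPCs and at 138, 159 and 161 CPM in ECs (log2 fold change -1.13 ± 0.29 SE, adjusted p = 0.0356). The change in *stat3* was small but its libraries lay close together within each cell type. Each of *thpo* and *stat3* lost its call without any 1 of EC replicate 2, EC replicate 3, HSPC replicate 2 or HSPC replicate 3, with adjusted p from 0.0628 to 0.205. Of 30 tested inflammatory signaling genes, with a median of 0.04, 2 were called, near the 5.38% of all tested genes. They were *socs3a* and *socs3b*, feedback inhibitors of JAK-STAT signaling, both lower. *socs3a* was at 192 and 371 CPM in HSPCs and at 1756, 2443 and 3723 CPM in ECs (log2 fold change -3.23 ± 0.51 SE, adjusted p = 0.00179, and 0.050015 without HSPC replicate 2, just past the threshold). *socs3b* was at 177 and 303 CPM in HSPCs and at 740, 918 and 1036 CPM in ECs (log2 fold change -1.90 ± 0.47 SE, adjusted p = 0.0291), with adjusted p of 0.065 to 0.246 without EC replicate 2, EC replicate 3, HSPC replicate 2 or HSPC replicate 3.

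Genes of cell attachment and of the basement membrane were called in 1 direction. Of 38 tested matrix and adhesion genes 9 were called lower and none higher, with a median of -1.13, and of 32 tested migration and transition genes 6 were called lower and none higher, with a median of -0.71, against 3.3% of all tested genes called lower. Fitting only the 5 compared libraries called 3 matrix and 0 migration genes lower. *itga5*, a subunit of the fibronectin receptor, was at 11 and 14.3 CPM in HSPCs and at 160, 291 and 195 CPM in ECs (log2 fold change -4.09 ± 0.76 SE, adjusted p = 0.00586, lost without HSPC replicate 2 at 0.0776). *col4a1*, a collagen of basement membranes, was at 1.44 and 6.96 CPM in HSPCs and at 76.9, 97.8 and 86.4 CPM in ECs (log2 fold change -4.31 ± 0.90 SE, adjusted p = 0.0121, lost without HSPC replicate 2 at 0.117). *lamb1b*, a laminin chain, had 0 counts in HSPCs and 21.5, 22.8 and 44.2 CPM in ECs, at least 163-fold lower (adjusted p = 0.00435, lost without HSPC replicate 3 at 0.0533). The 3 genes did not overlap between the cell types, as was so for all 699 genes called lower. The membrane protease *mmp14b* was at 0.577 and 3.48 CPM in HSPCs and at 31.5, 85.6 and 74.9 CPM in ECs (log2 fold change -4.87 ± 0.84 SE, adjusted p = 0.00336) and kept its call without any 1 library. The chemokine *cxcl12a* was at 0 and 8.4 CPM in HSPCs and at 97.1, 131 and 182 CPM in ECs (log2 fold change -4.93 ± 1.12 SE, adjusted p = 0.0191, lost without EC replicate 3 at 0.0511). The chemokine receptor *cxcr4a* was at 2.31 and 22.7 CPM in HSPCs and at 185, 241 and 388 CPM in ECs (adjusted p = 0.0411). The scavenging chemokine receptor *ackr3b* was at 18.2 and 17.7 CPM in HSPCs and at 98.6, 80.8 and 68.1 CPM in ECs (adjusted p = 0.0452). *snai1a*, a repressor known from epithelial-to-mesenchymal transition, was at 0.865 and 9.42 CPM in HSPCs and at 52.6, 54.5 and 52.6 CPM in ECs (log2 fold change -3.32 ± 0.80 SE, adjusted p = 0.0257). The calls of *cxcr4a*, *ackr3b* and *snai1a* were lost without HSPC replicate 2, at adjusted p of 0.204, 0.204 and 0.13, and each also without EC replicate 2 or EC replicate 3. *ackr3b* lost its call without EC replicate 1 (0.0868) or HSPC replicate 3 (0.214) as well. Without HSPC replicate 2, 2 genes of each list were called, and without EC replicate 3, 1 migration gene was called.

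Replication and mitosis genes were not called in either direction. Of all 21161 tested genes, edgeR called 5.38%, 4420 had an unadjusted p under 0.05 and DESeq2 on all libraries called 2476. None of 56 tested passed by edgeR (8 at an unadjusted p under 0.05, and 4 called by DESeq2), although 49 had a positive fitted log2 fold change with a median of 0.79. Their sum was 10694 and 5796 CPM in HSPCs and 5997, 4667 and 4135 CPM in ECs, so the lower HSPC library lay within the EC range. *pcna*, the sliding clamp of DNA polymerase, was at 1325 and 696 CPM in HSPCs and at 772, 534 and 525 CPM in ECs (log2 fold change 0.73 ± 0.42 SE, adjusted p = 0.351). *ccna2*, a cyclin of S phase and mitosis, was at 349 and 271 CPM in HSPCs and at 145, 139 and 92.6 CPM in ECs (log2 fold change 1.304 ± 0.37 SE, adjusted p = 0.0541). *ccna2* came near the threshold, without overlap between the groups.

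Genes that write, bind or remove DNA methylation were called at about the share of all tested genes, which was 5.38% in either direction. Of 21 tested, with a median of -0.14, 1 was called, *gadd45ab*, at 17.6 and 20.3 CPM in HSPCs and at 74.9, 58.4 and 122 CPM in ECs (log2 fold change -2.16 ± 0.55 SE, adjusted p = 0.0354), and it was lost without EC replicate 3 (0.124), HSPC replicate 2 (0.213) or HSPC replicate 3 (0.161). *dnmt1* had a log2 fold change of 0.83 ± 0.48 SE (adjusted p = 0.343), with overlap between the libraries given above. The de novo methyltransferase gene *dnmt3ba* was at 97.5 and 50.2 CPM in HSPCs and at 271, 55.5 and 55.3 CPM in ECs (adjusted p = 0.665), while HECs had 908, 473 and 659 CPM. For *dnmt3ba* the HEC libraries were thus above all others and the HSPC and EC libraries overlapped.

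Some of the largest positive log2 fold changes were in genes that are in none of the lists. The sodium pump subunit *atp1a1a.2* was at 1364 and 1184 CPM in HSPCs with 0 counts in ECs, at least 5682-fold higher (adjusted p = 0.00274), and at 1.45, 0 and 0.316 CPM in HECs. The claudin *cldnh* was at 125 and 187 CPM in HSPCs with 0 counts in ECs, at least 802-fold higher (adjusted p = 0.00252). The transporter genes *slc10a4* (at least 578-fold, adjusted p = 0.000396) and *slc43a3a* (at least 545-fold, adjusted p = 0.00102) also had 0 counts in every EC library. These 4 genes were at similar levels in both HSPC libraries and kept their calls without any 1 library. *slc18a3a*, the vesicular acetylcholine transporter of neurons, was at 70.1 and 186 CPM in HSPCs with 0 counts in ECs, at least 739-fold higher (adjusted p = 0.0474), and *snap25a*, of the synaptic vesicle machinery, was at 199 and 835 CPM in HSPCs and at 14.3, 2.89 and 0.158 CPM in ECs (log2 fold change 6.48 ± 1.37 SE, adjusted p = 0.0147). *snap25a* was the only one of 20 tested neural markers called (median 1.49), near the 5.38% of all tested genes called. The sum of the neural markers was 1843 and 3122 CPM in HSPCs against 1124, 693 and 694 CPM in ECs. *slc18a3a* lost its call without any 1 library (adjusted p 0.0856 to 0.146), and *snap25a* without EC replicate 2 (0.0654) or HSPC replicate 3 (0.0803). *asb2b*, *fgf13b*, *krt97* and the chaperone *hsp90aa1.1* had 0 counts in ECs and were higher in HSPC replicate 3 than in replicate 2. *hsp90aa1.1*, which zebrafish skeletal muscle expresses, was at 9.52 and 516 CPM in HSPC replicates 2 and 3, at least 1861-fold higher than in ECs (adjusted p = 0.0267), and its call was lost without HSPC replicate 3 (adjusted p = 0.191) or any 1 EC library (0.0535 to 0.08). The calls of *fgf13b* (at least 721-fold, adjusted p = 0.0369) and *krt97* (at least 793-fold, adjusted p = 0.0409) were lost without any 1 library, at adjusted p of 0.0695 to 0.124, and that of *asb2b* (at least 524-fold, adjusted p = 0.0154) without EC replicate 3 at 0.0593.

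Markers of other cell types gave 4 calls besides *snap25a*, 1 in each of 4 lists, where 5.38% of all tested genes were called. The lists had medians of 2.51 (skin, 19 tested), -0.13 (notochord and fin mesenchyme, 16 tested), 0.69 (pronephros and endoderm, 12 tested) and 3.83 (pigment cells, 11 tested). The caveolin gene *cav1*, listed for notochord and abundant in endothelium too, had 1 count in HSPCs, a ratio of 1741 (95% counting interval 312 to 68799, adjusted p = 0.00174), and *krt8*, listed for skin, was at 45.6 and 109 CPM in HSPCs and at 676, 558 and 854 CPM in ECs (log2 fold change -3.17 ± 0.58 SE, adjusted p = 0.00534, lost without HSPC replicate 2 at 0.0818). *slc20a1a*, listed for pronephros, was at 9.52 and 12.6 CPM in HSPCs with 1 count in ECs, a ratio of 166 (95% counting interval 29.4 to 6598, adjusted p = 0.03), and was lost without any 1 of 4 libraries (adjusted p 0.083 to 0.102). *tyrp1b*, a melanin gene, was at 2301 and 2.63 CPM in HSPCs and at 3.35, 0.321 and 6.63 CPM in ECs. It was called higher (adjusted p = 0.0497) although the groups overlapped, and without HSPC replicate 2 its adjusted p was 0.976 with the sign turned.

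The libraries labelled HSPC were marked by red cell genes, so HECs are not taken here as a stage between ECs and HSPCs. HECs were set on a scale from 0 at the EC mean to 1 at the HSPC mean of log2(CPM + 1). This is a description, since the ends of the scale chose the genes. The 440 genes higher in HSPCs had a median HEC position of 0.37, and 308 of them (70.0%) were nearer to ECs. The 699 genes lower in HSPCs had a median of 0.40, and 483 (69.1%) were nearer to ECs. Outside the scale, 41 of the higher genes lay beyond the EC end and 10 beyond the HSPC end, and 20 and 4 of the lower genes did so. The endothelial sum was intermediate in HECs, with 14253, 21699 and 24914 CPM in ECs, 4826, 7540 and 5161 CPM in HECs, and 542 and 914 CPM in HSPCs. *cdh5* was at 57.9, 209 and 63.8 CPM and *dll4* at 147, 238 and 192 CPM in HECs, between the other cell types. The sum of the heme and red cell membrane list was intermediate in HECs too, with 6914, 6111 and 4262 CPM. *gfi1aa* was at 103, 39.6 and 80.1 CPM in HECs. This gene, *myb* and *gata2b* were higher in every HEC library than in every HSPC and EC library. The other markers of the label check overlapped, with HEC levels of 200.1, 56.5 and 344 CPM for *ptprc*, 458, 95.3 and 782 CPM for *spi1b*, and 23.7, 19.1 and 78.9 CPM for the reporter gene *runx1*.

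**Figure D4:**
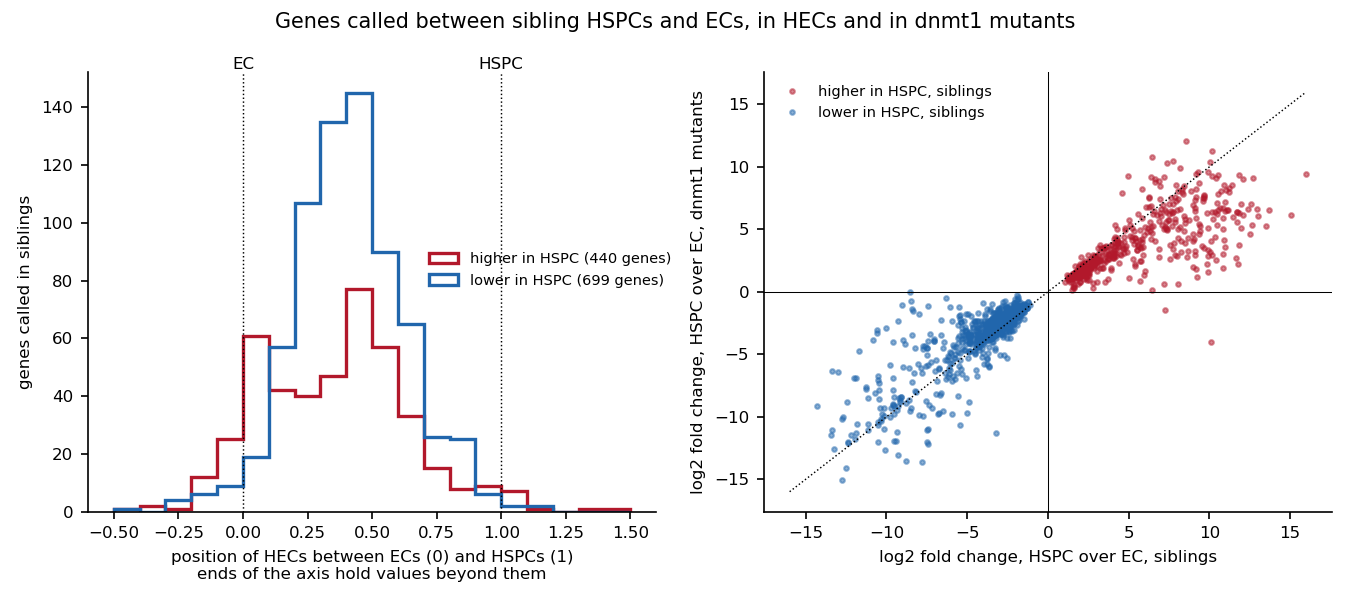
Genes called between sibling HSPCs and ECs. Left, number of genes by the position of HECs between ECs (0) and HSPCs (1) on the scale of log2(CPM + 1), with medians of 0.37 for higher and 0.40 for lower genes. Right, log2 fold change, HSPC over EC, of the same genes in siblings (horizontal) and *dnmt1* mutants (vertical), where the dotted line marks equal change and 438 of 440 higher and all 699 lower genes keep their direction.

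The same comparison was made in the 2 HSPC and 3 EC libraries of *dnmt1* mutants, which share no library with the siblings. Both comparisons came from 1 fit over all 16 libraries. The mutant libraries thus had a part in the filter and in the spread by which the sibling genes were called. The shares in mutants given below are in part selected for by this. Same-numbered libraries of both genotypes shared features such as the muscle RNA of HSPC replicate 3, so they are not unrelated. In mutants 243 genes (1.15%) were called higher and 500 (2.36%) lower in HSPCs. Of the 440 genes higher in sibling HSPCs, 438 had the same direction in mutants with a median log2 fold change of 3.44, and 186 were called, which is 42.3% of the sibling list and 76.5% of the mutant list. In 416 of them (94.5%) both mutant HSPC libraries were above every mutant EC library, against 21.3% of all tested genes. Of the 699 lower genes all had the same direction with a median of -2.85, and 424 were called, which is 60.7% of the sibling list and 84.8% of the mutant list. In 681 of them (97.4%) both mutant HSPC libraries were below every mutant EC library, against 14.96% of all tested genes. Over all tested genes 77.1% had the same sign in siblings and mutants. Since the genes were chosen by the sibling test, their smaller medians in mutants do not show a weaker change there.

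By group, 36 of 53 tested pan-endothelial, 10 of 17 venous and scavenger and 6 of 18 arterial genes were called lower in mutants, as in siblings. Of all tested genes 2.36% were called lower in mutants. Of 40 tested heme and red cell membrane genes 23 were called higher, as in siblings, against 1.15% of all tested genes. None of 11 tested globins was called in mutants, with a median log2 fold change of 5.38. In a list this short, 0 calls do not set it apart from all tested genes. *cdh5* was at 1.53 and 0 CPM in mutant HSPCs and at 306, 383 and 340 CPM in mutant ECs (log2 fold change -9.11, adjusted p = 0.00189). *dll4* was at 8.52 and 3.7 CPM in mutant HSPCs and at 471, 420 and 849 CPM in mutant ECs (log2 fold change -6.58, adjusted p = 8.62e-05). *hmbsb* was at 834 and 1498 CPM in mutant HSPCs and at 52, 24.2 and 17 CPM in mutant ECs (log2 fold change 5.23, adjusted p = 0.000501). All 3 repeated the sibling pattern without overlap. *notch1b* was at 83.9 and 14.8 CPM in mutant HSPCs, against 384, 214 and 303 CPM in mutant ECs (log2 fold change -2.61, adjusted p = 0.0259), and *notch1a* at 64.9 and 44.4 CPM against 148, 131 and 153 CPM was not called (log2 fold change -1.40, adjusted p = 0.0646). The difference between the genotypes in the HSPC over EC change was tested across all genes with edgeR. It called 0 genes, with 501 at an unadjusted p under 0.05, and with the replicate number as a term, an alternative added after seeing the data, it again called 0, with 552 at an unadjusted p under 0.05. A difference between siblings and mutants was therefore not shown for any single gene.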

How the data were processed

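RNA-seq libraries were read from 1 table of counts per gene that the authors deposited, made per the labels' processing notes and the study's methods with HISAT2 2.2.1 (alignment to GRCz11) and HTSeq 0.12.4. The annotation and strand setting are not given in the sources used here, so overlapping genes cannot be told apart. The labels describe a single-cell protocol with reads biased to the 3′ end, whereas the methods state 500 sorted cells. The 5 closing tally rows, which name no gene and hold 45.8% of all reads, were dropped.

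Counts were tested with edgeR 4.0.16 (R 4.3.3), which gave every adjusted p: filterByExpr, TMM scaling, and a quasi-likelihood fit over all 16 libraries with 1 term per cell type and genotype, so that all groups share the estimate of the spread. The methods name DESeq2, which was run as an alternative (version 1.42.0). The script was tested on simulated counts with 200 changed genes. At the spread seen in these libraries it called 28 of the 200 at a log2 change of 3, and 155 at 6. With a lower spread it called all 200 at either change. A gene that was not called is therefore not shown to be unchanged. Standard errors (SE) follow from the fitted fold change and its test. Genes without a count in one cell type are given as a bound at a floor of 3 counts over the group, and genes with 1 to 3 counts as a ratio with a 95% exact interval, which covers counting error only.

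Members of 23 gene lists, and the comparison itself, were chosen with earlier results of these data known. Of the list entries 626 matched by symbol, 10 by RefSeq synonym and 3 by a written alternative, and 22 did not match. Genes were named as reporters or genes the study names, up to 5 called members per list and direction, the most abundant members of lists with few calls, the 12 largest changes per direction with no overlap and a mean of at least 20 CPM, and the 10 most abundant genes. Marker genes of the label check, *pecam1* and *egfl7* among them, are named as such. *etv2*, *sox7*, *sox18*, *fli1b*, *klf2a*, *klf2b*, *klf6a*, *kdr*, *efnb2b*, *nr2f2*, *tal1*, *lmo2*, *cahz*, *tfr1a*, *epor*, *ackr3b*, *ccna2*, *mef2ca*, *mef2cb* and the heme and iron genes *hmbsb*, *hmbsa*, *urod*, *uros*, *alad*, *cpox*, *ppox*, *fech* and *slc25a37* fall outside this rule and were chosen after their values were seen.

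Alternatives were other size factors, other filters, no minimum fold change, fewer libraries, the replicate block, DESeq2 and leaving out each library. The authors' files of fold changes and of methylation regions were not used, and the 18 methylation samples were not analysed here.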

Additional observations from a re-analysis of the deposited data

How the results depend on the processing

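The count of calls between sibling HSPCs and ECs depended on the fit more than the direction of single genes did. It was 1139 (440 higher, 699 lower) in the fit reported. With RLE size factors it was 1117, without the filter on low counts 1002 of 32705 tested, and with at least 10 counts in every compared library 781 of 9376 tested, of which 293 were higher. Without the fold-change minimum it was again 1139. Fitting only the 5 compared libraries called 366 genes (134 higher, 232 lower). DESeq2 called 2476 (1165 higher, 1311 lower) on all libraries, 2257 (1132 higher, 1125 lower) on the 5 compared libraries, and 5820 (3212 higher, 2608 lower) at the adjusted p under 0.5 that the methods print. Leaving out 1 library gave 439 to 1108 calls, 189 to 411 of them higher and 249 to 697 lower, with the fewest calls in all and the fewest lower without HSPC replicate 2, and the fewest higher without EC replicate 3. In mutants the 743 calls became 741 with RLE size factors, 457 (286 lower) with only the 5 mutant libraries, and 315 to 515 without 1 library, 59 to 150 higher and 203 to 398 lower. The cause of these differences was not tested, beyond the smaller number of genes or libraries in some fits. The difference between genotypes stayed at 0 calls by edgeR with RLE size factors, with 506 at an unadjusted p under 0.05, and at 0 with the replicate block over all libraries, added after seeing the data, with 552 at an unadjusted p under 0.05. DESeq2 was not run for it.

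With the replicate block over all libraries 1701 genes were called (658 higher, 1043 lower). With the replicate block in the libraries numbered 2 and 3 alone, edgeR called 0 genes, 0 higher and 0 lower, with 2992 at an unadjusted p under 0.05. Deviations of same-numbered sibling HSPC and EC libraries correlated at 0.09 for number 2 and 0.09 for number 3, and the numbers were not taken as pairs. With 2 HSPC libraries the deviations are opposite by construction, so this check is weak. It does not cover features that same-numbered libraries of both genotypes shared, such as the muscle RNA of HSPC replicate 3. The fit reported has no term for the replicate number.

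Of 76 named genes called, the number still called was 75 with RLE size factors, 59 without the filter, 21 of the 21 with a value under the stricter filter, 41 with only the 5 compared libraries, 76 with DESeq2 on all libraries, and 42 to 68 without 1 library. The only sign that turned was that of *tyrp1b*, with a log2 fold change of -0.34 without HSPC replicate 2 and 9.32 without HSPC replicate 3.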
